A study of Rattus norvegicus with 11 samples.

Results

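The erythroid and haemoglobin genes of the rat lung were followed on 11 Affymetrix rat arrays, each carrying labelled RNA of whole lung. A probe set belonged to the group when its annotated symbol was, or included, Hba-a1, Hba-a2, Hbb, Alas2, Slc25a37, Tfrc, Slc4a1, Epb42, Gypc or Bpgm. This rule found 14 of 31042 probe sets, and they cover 10 of 10 genes. Hba-a1 and Hba-a2 share 3 probe sets and cannot be told apart on them. Slc4a1, Bpgm and Tfrc have 2 probe sets each, and Hbb, Alas2, Slc25a37, Epb42 and Gypc have 1 each. The rule reads symbols, not signals, but the 10 genes were chosen with earlier results of these data known.

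The animals were Dahl Salt Sensitive rats of 250 to 350 g, an inbred strain that becomes hypertensive on a high-salt diet, and every group shared this strain. The first group breathed about 9.5% oxygen and received SU5416 (3 arrays), an inhibitor of the receptors for vascular endothelial growth factor. Another breathed the same low oxygen with vehicle (hypoxia, 4 arrays), and the last breathed room air with vehicle (normoxia, 4 arrays). Lungs were taken at 3.5 weeks, after exsanguination under anaesthesia and flushing of the lung vessels through the pulmonary artery. No group received SU5416 in room air, so the drug was compared only within hypoxia, and the sorafenib group that the study names was not analysed here. The labels do not say how the drug was dosed, and nothing in them states whether an array holds 1 animal or a pool, so p-values measure the spread between these arrays.

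Haemoglobin is built from alpha globin (Hba-a1, Hba-a2) and beta globin (Hbb) chains that each hold a haem group. Its messengers are made in red cell precursors, and young red cells that have shed their nucleus still carry them into the blood. Alas2 starts haem synthesis in these precursors, Tfrc takes up transferrin-bound iron and Slc25a37 (mitoferrin) moves iron into mitochondria. Slc4a1, Epb42 and Gypc belong to the red cell membrane and its attachment to the skeleton below it. Bpgm makes the bisphosphoglycerate that lowers the oxygen affinity of haemoglobin. Low oxygen is known to raise erythropoietin from the kidney and so the output of red cells from the marrow.

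Values are log2 signals as deposited, and differences are given on that scale. Array medians lay between 7.8 and 8.01. Background was set at 5.72, the level below which 95% of the values of 27 bacterial control probe sets fell, and 13 of the 14 erythroid probe sets had a mean above it. Normoxia arrays 1 and 2 stood apart in 2 of 3 controls for RNA integrity. Their 3′ beta-actin control exceeded the 5′ control by 2.24 and 1.33, against 0.51 and 0.60 on normoxia arrays 3 and 4, 0.68 to 0.87 in hypoxia and 0.56 to 0.67 in hypoxia with SU5416. The GAPDH gap was 0.84 and 0.64 on normoxia arrays 1 and 2 and 0.06 to 0.52 on the other 9, but the hexokinase gap was 1.82 and 3.22, against 1.06 to 2.44, so array 1 did not stand apart on it. Main results against normoxia are given with and without these 2 arrays.

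The beta globin, Alas2 and Slc4a1 signals had higher means in both hypoxic groups than in normoxia, as did alpha globin probe set 1388608_x_at. The 2 alpha globin probe sets of smallest spread were nearly level, and the signal of Gypc varied little. None of the 14 probe sets passed the test over all probe sets in any comparison. The tests used limma on all 11 arrays with Benjamini-Hochberg adjustment over 31042 probe sets, with calls made where the adjusted p was under 0.05. In bulk lung, a lower signal from fewer cells of a type and from less RNA per cell cannot be told apart.

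Hbb (probe set 1367553_x_at, gene at chr1:167662310-167663721, GRCr8) read 13.27, 13.42 and 13.36 in hypoxia with SU5416, 13.36, 12.96, 13.10 and 13.39 in hypoxia, and 12.41, 12.81, 13.23 and 13.06 in normoxia. Every array with SU5416 lay above every normoxia array, the closest being normoxia array 3, whereas the hypoxia arrays overlapped normoxia. Means were 13.35 ± 0.075 (SD, n = 3) in hypoxia with SU5416, 13.20 ± 0.21 (n = 4) in hypoxia and 12.88 ± 0.36 (n = 4) in normoxia. The difference from normoxia was 0.47 (SE 0.19) with SU5416, a 1.39-fold higher signal that missed the threshold (limma adjusted p = 0.356). In hypoxia it was 0.33 (SE 0.18), 1.25-fold, with a limma adjusted p of 0.533. The lowest values of the beta globin belonged to normoxia arrays 1 and 2. Without them the differences were 0.20 (SE 0.16) with SU5416 and 0.058 (SE 0.15) in hypoxia.

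The sequences just upstream of the globin and Alas2 starts are shown because these genes make the protein chains of haemoglobin and start the synthesis of its haem. They are RefSeq windows of 250 bases before the annotated start on GRCr8, 5′ to 3′ on the strand of the gene, at chr1:167663722-167663971 (minus) for Hbb, chr10:15842581-15842830 (minus) for Hba-a1, chr10:15829139-15829388 (minus) for Hba-a2 and chrX:22895200-22895449 (plus) for Alas2. Capitals mark the motifs searched on both strands: the GATA box (AGATAA or TGATAA), the CACCC box (CCACACCC), the CCAAT box (which reads ATTGG on the other strand) and the TATA box (TATAAA or CATAAAA).
Hbb: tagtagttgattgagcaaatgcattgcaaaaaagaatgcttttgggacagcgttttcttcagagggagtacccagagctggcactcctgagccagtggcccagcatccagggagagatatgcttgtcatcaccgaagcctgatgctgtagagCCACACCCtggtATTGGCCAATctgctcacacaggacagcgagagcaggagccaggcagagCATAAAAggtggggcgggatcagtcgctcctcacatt
Hba-a1: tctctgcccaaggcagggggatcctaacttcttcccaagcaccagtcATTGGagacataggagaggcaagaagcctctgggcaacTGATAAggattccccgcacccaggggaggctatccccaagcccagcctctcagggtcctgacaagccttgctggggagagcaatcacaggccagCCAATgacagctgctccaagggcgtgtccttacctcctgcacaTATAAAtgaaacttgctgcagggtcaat
Hba-a2: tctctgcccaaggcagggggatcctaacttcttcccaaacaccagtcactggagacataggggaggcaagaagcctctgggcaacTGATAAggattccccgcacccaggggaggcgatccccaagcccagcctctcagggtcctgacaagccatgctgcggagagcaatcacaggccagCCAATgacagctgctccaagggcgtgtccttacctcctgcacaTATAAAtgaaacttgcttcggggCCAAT
Alas2: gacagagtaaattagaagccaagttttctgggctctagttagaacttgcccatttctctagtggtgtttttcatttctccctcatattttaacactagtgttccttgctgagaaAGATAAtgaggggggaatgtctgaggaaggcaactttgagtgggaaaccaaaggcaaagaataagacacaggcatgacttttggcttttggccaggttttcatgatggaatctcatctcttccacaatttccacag

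The windows of the alpha globin pair were identical at 241 of 250 positions (96.4%), and both hold a GATA box 165 bases, a CCAAT box 71 bases and a TATA box 28 bases upstream of the start. Hbb holds the CACCC box 98 bases upstream, then CCAAT matches on opposite strands that adjoin at 86 and 81 bases, and a TATA box at 37 bases. Alas2 holds a GATA box at 136 bases, and its window lies inside the annotated gene span (chrX:22890650-22914046). Windows were found for 8 of the 10 genes. The GATA box was in 3 of these 8 windows against 16.9% of 33469 rat windows, the CACCC box in 1 against 2.84%, the CCAAT box in 5 against 34.0% and the TATA box in 3 against 16.1%. Both near-identical alpha globin windows enter the GATA, CCAAT and TATA counts, so the 8 windows are not independent. A match describes the letters only, and a window without a match says nothing about binding elsewhere.

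The 3 alpha globin probe sets did not behave alike. On 1388608_x_at, hypoxia with SU5416 read 13.05, 13.23 and 13.20, hypoxia 13.28, 12.59, 12.79 and 13.28, and normoxia 12.50, 12.67, 13.04 and 12.85. Hypoxia split into a high pair (arrays 1 and 4) and a low pair (arrays 2 and 3), and the arrays with SU5416 lay above all normoxia arrays, the lowest of them just above normoxia array 3. The difference from normoxia was 0.40 (SE 0.20) with SU5416 (limma adjusted p = 0.448) and 0.22 (SE 0.18) in hypoxia (limma adjusted p = 0.688). Leaving out normoxia arrays 1 and 2 gave 0.21 (SE 0.23) and 0.040 (SE 0.21).

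On 1370239_at, hypoxia with SU5416 read 13.18, 13.28 and 13.10, hypoxia 13.02, 13.03, 12.98 and 13.23, and normoxia 13.24, 13.26, 13.05 and 13.13. All groups overlapped, and here normoxia arrays 1 and 2 were the higher ones of their group. The difference from normoxia was 0.017 (SE 0.11) with SU5416 and −0.11 (SE 0.097) in hypoxia. The third probe set, 1370240_x_at, ran between 12.95 and 13.23 over the 11 arrays and differed from normoxia by 0.045 with SU5416 and by −0.023 in hypoxia. The sign of this hypoxia difference turned after quantile normalization, median centring and without normoxia arrays 1 and 2. Probe sets whose names carry _x hold probes that can also bind related sequences, which for the globins are many. By mean signal, 1370239_at and 1370240_x_at ranked 72 and 75 of 31042 probe sets, and Hbb ranked 77. Whether so high a signal limits the differences that can be read was not tested.

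**Figure D1:**
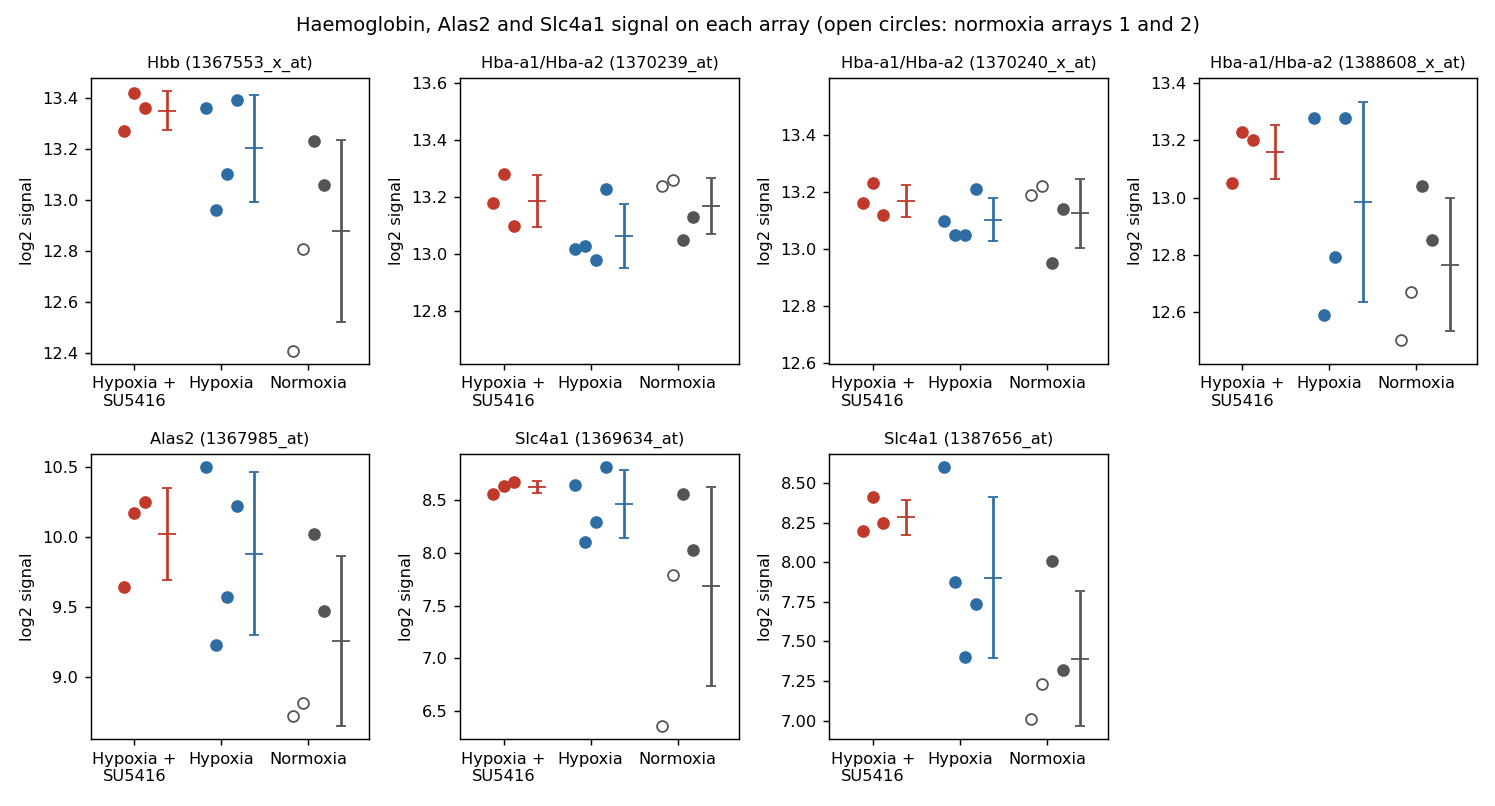
Log2 signal (vertical axes, which differ in span) of Hbb, alpha globin, Alas2 and Slc4a1 probe sets on each array of hypoxia with SU5416, hypoxia and normoxia, from left to right. Points are arrays, with normoxia arrays 1 and 2 as open circles, and bars show the mean ± SD. The open circles are the lowest normoxia points for Hbb, Alas2 and Slc4a1, and the highest for alpha globin 1370239_at and 1370240_x_at.

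Other globins of the array, which the symbol rule does not include, were read beside Hbb. Probe set 1371102_x_at of the beta globins Hbbl1 and Hbb-bs read 12.19, 12.62 and 12.62 in hypoxia with SU5416, 12.68, 11.66, 12.01 and 12.56 in hypoxia, and 10.61, 10.87, 12.36 and 11.75 in normoxia. Normoxia array 3 exceeded 1 array with SU5416, so the groups overlapped. The difference from normoxia was 1.08 (SE 0.41, limma adjusted p = 0.333) with SU5416 and 0.83 (SE 0.38, limma adjusted p = 0.463) in hypoxia. Their other probe set, 1371245_a_at, differed by 0.70 (SE 0.22) and 0.54 (SE 0.21), with limma adjusted p of 0.262 and 0.396. The alpha globin Hba-a3 (1375519_at) differed by 0.048 in each comparison, with values between 10.14 and 11.38 in hypoxia and between 10.23 and 11.28 in normoxia. For both hypoxic groups against normoxia, the differences were 0.95 (SE 0.34) on 1371102_x_at, 0.62 (SE 0.18) on 1371245_a_at and 0.048 (SE 0.26) for Hba-a3. Without normoxia arrays 1 and 2 they were 0.30 (SE 0.30), 0.36 (SE 0.21) and −0.25 (SE 0.32).

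Alas2 (1367985_at), the erythroid enzyme of the rate-limiting step of haem synthesis, read 9.64, 10.17 and 10.25 in hypoxia with SU5416, 10.50, 9.22, 9.57 and 10.22 in hypoxia, and 8.72, 8.81, 10.02 and 9.47 in normoxia. Normoxia arrays 1 and 2 were the lowest of all, well below arrays 3 and 4, and all groups overlapped. The difference from normoxia was 0.77 (SE 0.38) with SU5416, 1.70-fold (adjusted p = 0.448 by limma), and 0.62 (SE 0.35) in hypoxia, 1.54-fold (adjusted p = 0.548 by limma). Leaving out normoxia arrays 1 and 2 gave 0.28 (SE 0.39) and 0.13 (SE 0.37).

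Slc25a37, the mitochondrial iron carrier (1382688_at, gene at chr15:50944085-50986506) read 8.64, 8.29 and 8.87 in hypoxia with SU5416, 8.70, 8.22, 8.34 and 8.92 in hypoxia, and 9.26, 8.61, 8.46 and 8.57 in normoxia. Normoxia array 1 was its highest array, the reverse of its place for Alas2. Its differences from normoxia were −0.12 (SE 0.24) with SU5416 and −0.18 (SE 0.22) in hypoxia, and both turned positive, at 0.086 and 0.034, without normoxia arrays 1 and 2.

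Tfrc, the transferrin receptor (gene at chr11:81668478-81690318), gave unlike values on its 2 probe sets. On 1371113_a_at, hypoxia with SU5416 read 8.78, 8.66 and 8.51, hypoxia 8.34, 8.21, 8.07 and 8.21, and normoxia 7.54, 7.82, 8.95 and 8.38. The arrays with SU5416 all lay above those of hypoxia alone, while normoxia covered the range of both. The difference between hypoxia with SU5416 and hypoxia was 0.44 (SE 0.28, 95% interval −0.18 to 1.07, limma adjusted p = 0.797). On 1388750_at it was −0.083 (95% interval −0.48 to 0.31), with 9.78, 9.37 and 9.83 in hypoxia with SU5416 and 9.68, 9.76, 9.95 and 9.60 in hypoxia. Against normoxia, 1371113_a_at differed by 0.48 (SE 0.28) with SU5416 and 0.034 (SE 0.26) in hypoxia. With normoxia arrays 1 and 2 left out, the difference was −0.016 with SU5416. In hypoxia it was −0.46 (SE 0.17), with an unadjusted limma p of 0.0287 and an adjusted p of 0.232.

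Slc4a1, the anion exchanger of the red cell membrane (gene at chr10:87807010-87823274), has 2 probe sets. Probe set 1387656_at read 8.20, 8.41 and 8.25 in hypoxia with SU5416, 8.60, 7.87, 7.40 and 7.74 in hypoxia, and 7.01, 7.23, 8.01 and 7.32 in normoxia. Probe set 1369634_at read 8.57, 8.64 and 8.68 in hypoxia with SU5416, 8.64, 8.11, 8.30 and 8.82 in hypoxia, and 6.35, 7.79, 8.56 and 8.03 in normoxia. On both, the arrays with SU5416 lay close together and above all normoxia arrays, although normoxia array 3 came just under the lowest of them on 1369634_at.

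The difference of Slc4a1 between hypoxia with SU5416 and normoxia was 0.89 (SE 0.29) on 1387656_at, 1.86-fold, with an unadjusted limma p of 0.0119 and an adjusted p of 0.273. It was 0.94 (SE 0.43) on 1369634_at, 1.92-fold (limma adjusted p = 0.406). In hypoxia the differences from normoxia were 0.51 (SE 0.27) and 0.78 (SE 0.39), with limma adjusted p of 0.518 and 0.50. The differences with SU5416 were 0.62 (SE 0.34) and 0.33 (SE 0.24) without normoxia arrays 1 and 2, and those in hypoxia 0.24 (SE 0.32) and 0.17 (SE 0.23). Leaving out normoxia array 3, the highest of its group, gave 1387656_at a difference of 1.10 with SU5416 and the lowest adjusted p of any erythroid probe set in any fit, 0.157.

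Epb42 (1382618_at), which links the anion exchanger to the membrane skeleton, read 4.76, 5.74 and 5.94 in hypoxia with SU5416, 5.67, 4.93, 4.07 and 4.53 in hypoxia, and 3.80, 3.97, 4.83 and 4.73 in normoxia. Only 2 arrays, both with SU5416, exceeded background, and all 3 group means were below it, so no fold is given. Gypc (1372273_at), the glycophorin that anchors the skeleton through its cytoplasmic tail, read 10.60, 10.69 and 10.58 in hypoxia with SU5416, 10.59, 10.83, 10.78 and 10.78 in hypoxia, and 10.77, 10.78, 10.56 and 10.93 in normoxia. It varied little from array to array, and all groups overlapped. Its differences from normoxia were −0.14 (SE 0.11) with SU5416 and −0.015 (SE 0.10) in hypoxia. Gypc is also made in cells outside the red cell line.

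Bpgm (gene at chr4:64106809-64135749) varied most on 1383551_at, with 8.32, 8.68 and 8.60 in hypoxia with SU5416, 8.28, 7.55, 7.62 and 8.0 in hypoxia, and 5.07, 7.32, 7.97 and 8.44 in normoxia. Normoxia array 1 was below background and far under the other arrays of its group. The arrays with SU5416 all exceeded those of hypoxia alone, with a difference of 0.67 (SE 0.65, 95% interval −0.77 to 2.12, limma adjusted p = 0.872). Against normoxia the differences were 1.33 (SE 0.65) with SU5416 and 0.66 (SE 0.60) in hypoxia. They were 0.33 (SE 0.25) and −0.35 (SE 0.24) without normoxia arrays 1 and 2. The second probe set, 1388544_at, differed from normoxia by 0.26 (SE 0.18) and 0.20 (SE 0.16), and its arrays overlapped in every comparison.

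**Figure D2:**
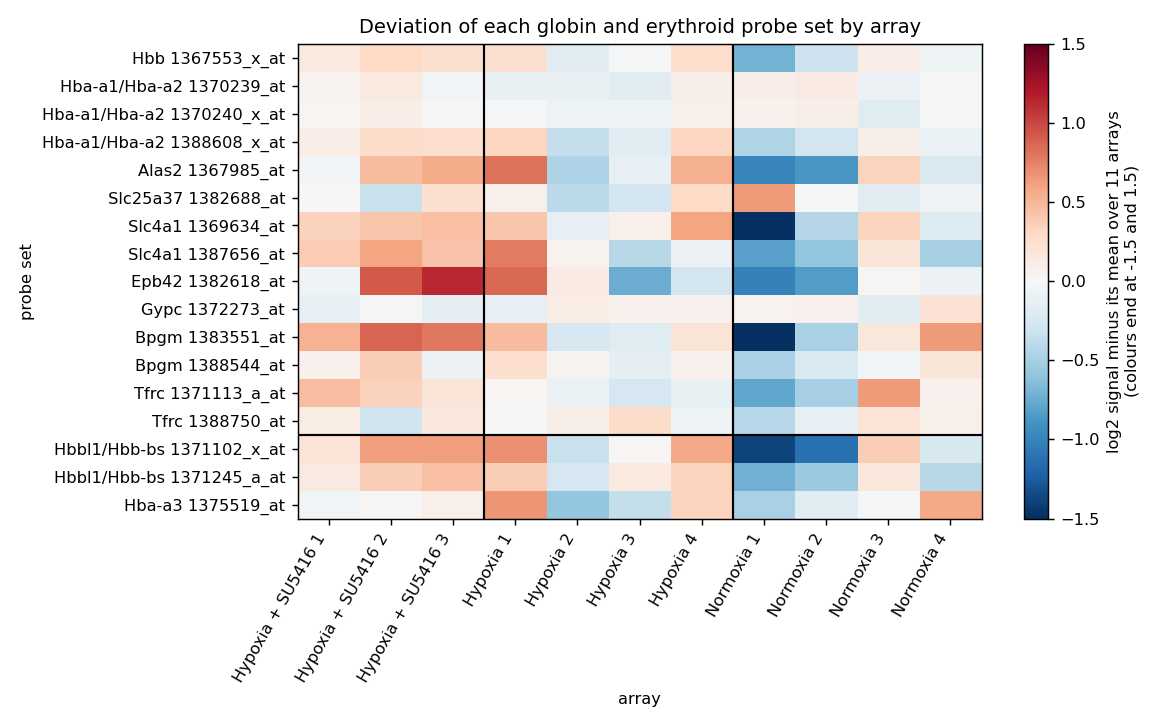
Deviation of the log2 signal from its mean over 11 arrays (colour) for the 14 erythroid probe sets and 3 other globin probe sets (rows, below the line) on each array (columns, hypoxia with SU5416, hypoxia, normoxia). Normoxia arrays 1 and 2 are blue in most rows, hypoxia arrays 1 and 4 are red in the rows of Hbb, alpha globin 1388608_x_at and Alas2, and Gypc and alpha globin 1370239_at and 1370240_x_at are pale throughout.

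Counted over all members, 0 of 14 probe sets were called between hypoxia with SU5416 and normoxia, against 0.0612% of all probe sets. At an unadjusted limma p below 0.05, 3 of 14 were higher (Hbb, Slc4a1 1387656_at and Epb42), against 4.82% of all probe sets, and 0 were lower, against 7.57%. The arrays did not overlap for 4 of 14 (Hbb, alpha globin 1388608_x_at and both Slc4a1 probe sets), all higher, against 4.94% of all probe sets in that direction. A mean difference above 0 was found for 12 of 14, against 44.5%, and the median difference was 0.43, against −0.038 over all probe sets. SAM at the delta and minimum fold (1.4) given in the study's description called 0 of 14, against 1.18% of all probe sets.

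Between hypoxia and normoxia, 0 of 14 were called by limma, against 0.00644% of all probe sets, and 0 by SAM, against 1.88%. At an unadjusted p below 0.05 the count was also 0, against 3.33% higher and 7.64% lower among all probe sets, and the arrays overlapped for all 14, where 6.13% of all probe sets did not overlap. The mean difference was above 0 for 10 of 14, against 42.4%. A fold of 1.4 or more was found for 4 of 14, all higher (Alas2, both Slc4a1 probe sets and Bpgm 1383551_at), against 4.84% of all probe sets. The median difference was 0.21, against −0.045.

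Between hypoxia with SU5416 and hypoxia alone, 0 of 14 were called by limma, against 0.0258% of all probe sets, 0 by SAM, against 0.995%, and 0 at an unadjusted p below 0.05, against 4.02% higher and 3.45% lower. The arrays did not overlap for 2 of 14 (Tfrc 1371113_a_at and Bpgm 1383551_at), both higher, against 6.27% of all probe sets in that direction. The difference was 0.15 for Hbb (95% interval −0.28 to 0.57) and 0.14 for Alas2 (−0.70 to 0.99). For Slc4a1 it was 0.16 (−0.79 to 1.11) on 1369634_at and 0.38 (−0.27 to 1.03) on 1387656_at. For alpha globin it was 0.12 (−0.11 to 0.36) on 1370239_at, 0.068 (−0.16 to 0.29) on 1370240_x_at and 0.18 (−0.26 to 0.61) on 1388608_x_at. These intervals do not exclude differences of either sign. After subtraction of the actin and Gapdh controls, which moved the median of all probe sets by −0.17 in this comparison, the mean difference was above 0 for 5 of 14, against 27.5% of all probe sets. As deposited it was above 0 for 12 of 14, against 52.4%.

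**Figure D3:**
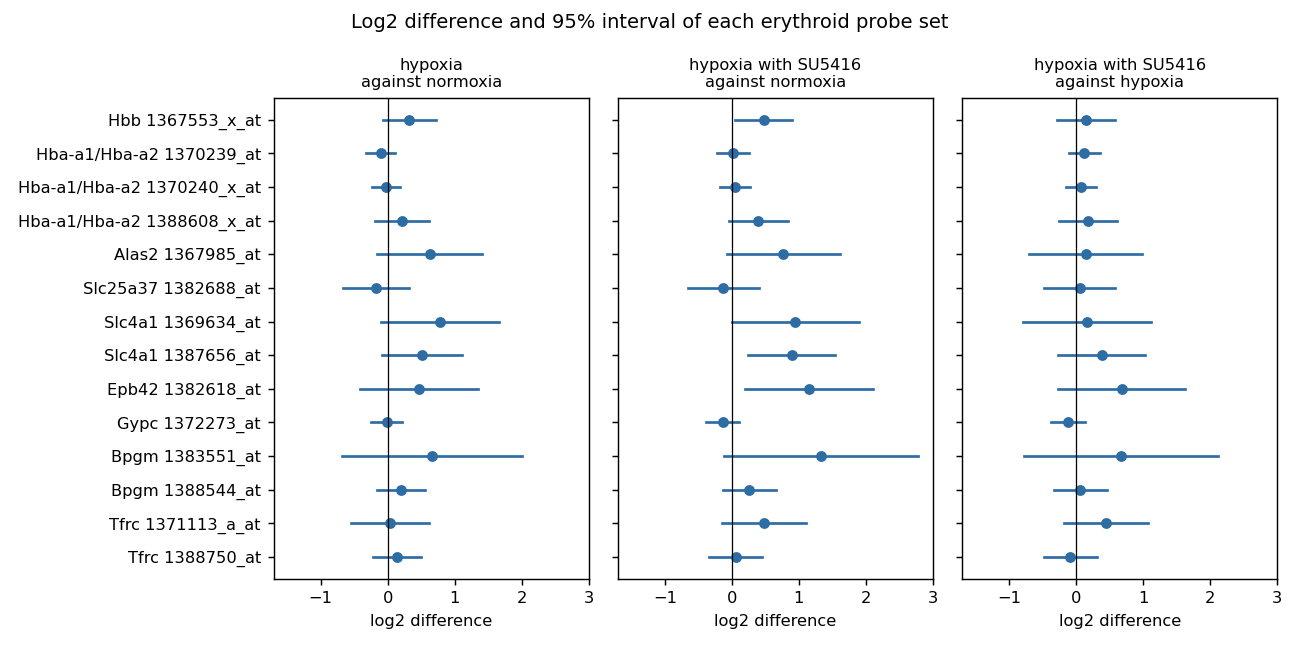
Log2 difference (point) with its 95% interval (line) of each erythroid probe set in 3 comparisons, each panel on the same horizontal scale, with a vertical line at 0. Both panels against normoxia use the same 4 normoxia arrays, and the intervals of Hbb, Slc4a1 1387656_at and Epb42 (below background) stand clear of 0 in the panel of hypoxia with SU5416 against normoxia, before adjustment.

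Taking both hypoxic groups against normoxia, 0 of 14 were called by limma, against 0.00644% of all probe sets, and 0 by SAM, against 3.51%. At an unadjusted p below 0.05, 4 of 14 were higher, against 4.75% of all probe sets, and 0 lower, against 8.70%. They were Hbb (0.40, SE 0.16), Slc4a1 (0.70, SE 0.24 on 1387656_at and 0.86, SE 0.35 on 1369634_at) and Epb42, with limma adjusted p of 0.319, 0.268, 0.328 and 0.355. Alas2 differed by 0.70 (SE 0.31, unadjusted limma p 0.0502). The mean difference was above 0 for 11 of 14, against 42.5%, and the arrays overlapped for all 14, where 2.45% of all probe sets did not. Since the comparisons against normoxia share the same control arrays, their counts are not independent of each other.

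The size of these differences depended on normoxia arrays 1 and 2. Without them, the median difference of the 14 probe sets was 0.17 with SU5416, 0.029 in hypoxia and 0.075 for both hypoxic groups, in place of 0.43, 0.21 and 0.28. In the same order, the medians of all probe sets without these arrays were −0.045, −0.055 and −0.051. Of 14 members, 0 were called in each, although 0.0805%, 0.319% and 0.271% of all probe sets were. At an unadjusted p below 0.05 the members numbered 0, 1 (Tfrc 1371113_a_at, lower) and 0, against 14.2%, 17.5% and 16.8% of all probe sets. With the beta-actin gap as a covariate over all 11 arrays, 0 of 14 were called in each comparison. The shares of all probe sets called in that fit were 0.0451% for hypoxia with SU5416 against normoxia, 0.0129% for hypoxia against normoxia, 0.0580% for hypoxia with SU5416 against hypoxia and 0.00966% for both hypoxic groups against normoxia.

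**Figure D4:**
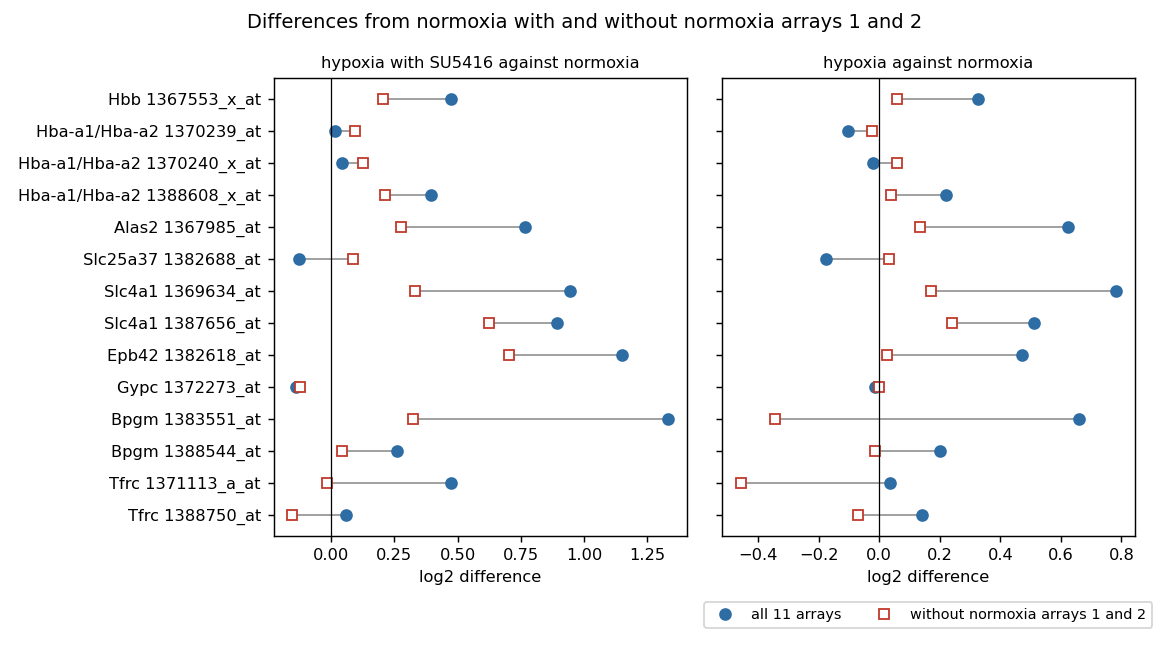
Log2 difference from normoxia of each erythroid probe set with all 11 arrays (filled circles) and without normoxia arrays 1 and 2 (open squares), for hypoxia with SU5416 (left) and hypoxia (right), on horizontal scales that differ. The squares lie nearer to 0 for Hbb, Alas2, both Slc4a1 probe sets and Epb42 (below background), and on the other side of 0 for Slc25a37 and both Tfrc probe sets in both panels, and for both Bpgm probe sets and alpha globin 1370240_x_at in hypoxia.

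Within normoxia, the shift between the arrays was not the same for all genes. Normoxia arrays 3 and 4 exceeded arrays 1 and 2 by 0.54 for Hbb and 0.98 for Alas2. They were higher by 1.22 and 0.54 for Slc4a1 (1369634_at and 1387656_at), by 0.98 and 0.42 for Tfrc, and by 2.01 and 0.43 for Bpgm. They were lower by 0.16 on the alpha globin probe sets 1370239_at and 1370240_x_at and by 0.42 for Slc25a37, and higher by 0.36 on alpha globin 1388608_x_at. Probe sets of the same alpha globin genes thus moved in opposite directions between these arrays. The part of RNA quality in this was not tested beyond the fits above.

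The arrays were ordered by the mean of the haemoglobin probe sets to describe the other members. The mean of the 4 haemoglobin probe sets was 13.17, 13.29 and 13.20 in hypoxia with SU5416, 13.19, 12.91, 12.98 and 13.28 in hypoxia, and 12.83, 12.99, 13.07 and 13.05 in normoxia. Hypoxia arrays 1 and 4 were high and arrays 2 and 3 low, and Alas2 put the same 2 arrays on top. The low arrays 2 and 3 also had the larger 3′ to 5′ gaps of GAPDH (0.41 and 0.52, against 0.27 and 0.19 on arrays 1 and 4) and hexokinase (2.20 and 2.44, against 1.90 and 1.45). The beta-actin gap did not follow the split, at 0.68, 0.78, 0.84 and 0.87 on hypoxia arrays 1 to 4. The part of RNA quality in the split was not tested. Over the 11 arrays the Pearson correlation with this mean was 0.86 for Alas2, and 0.81 and 0.73 for Slc4a1 (1369634_at and 1387656_at). It was 0.77 and 0.72 for Bpgm, 0.68 for Epb42, 0.62 and 0.056 for Tfrc (1371113_a_at and 1388750_at), −0.056 for Slc25a37 and −0.46 for Gypc. Without normoxia arrays 1 and 2, over 9 arrays, it was 0.81 for Alas2, 0.85 and 0.56 for Slc4a1, 0.72 and 0.49 for Bpgm, 0.50 for Epb42, 0.59 for Slc25a37, −0.43 for Gypc, and 0.30 and −0.68 for Tfrc. The 2 flat alpha globin probe sets had 0.21 and 0.28 over 11 arrays, and 0.75 and 0.71 over 9. All points share their array's scale factor and, over 11 arrays, the RNA quality of 2 of them, and Hbb and alpha globin are part of the mean.

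**Figure D5:**
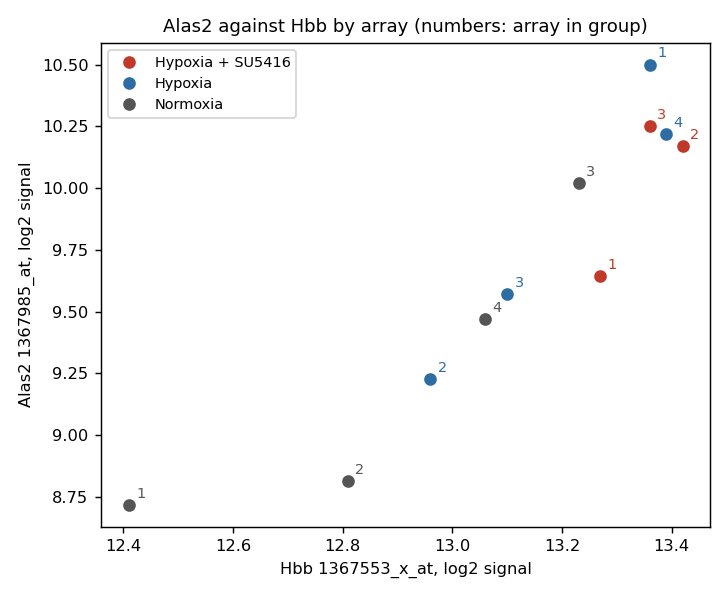
Log2 signal of Alas2 (vertical) against Hbb (horizontal) on the 11 arrays, coloured by group, with the array's number beside each point. Normoxia arrays 1 and 2 lie at the lower left, hypoxia arrays 2 and 3 next to normoxia array 4, and hypoxia arrays 1 and 4 among the arrays with SU5416.

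By the same measure, the 10 genes outside the group that were most like the haemoglobin mean were Ap3d1 (r = 0.91 over 11 arrays, 0.86 over 9), Slc24a3 (0.91 and 0.88), Rtn3 (0.90 and 0.95), Ubr4 (0.90 and 0.85), Riok3 (0.90 and 0.85), Syngr2 (0.90 and 0.85), Prps1 (0.90 and 0.91), Dcaf8 (0.89 and 0.84), Scnn1g (0.89 and 0.83) and Bcl2l1 (0.89 and 0.85). They are the top of a ranking over all single-gene probe sets above background, and no test was made of them. The other beta globin probe sets, which name 2 genes and so did not enter that ranking, had 0.85 and 0.83 over 11 arrays, and 0.86 and 0.74 over 9.

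Genes that mark nucleated red cell precursors were measured as well. Ahsp, the chaperone of free alpha globin, had a mean of 4.72 and exceeded background on 1 of 11 arrays. The erythroid factor Klf1 had 5.46 (4 of 11 arrays) and the membrane protein Rhag 4.87 (3 of 11). Gata1, which is also active in megakaryocytes and mast cells, had 7.27, and the skeletal anchor Ank1 7.81, both above background on all 11 arrays. In the wider lists, 8 of 10 erythroid transcription factors, 9 of 12 red cell membrane and skeleton genes and 8 of 9 genes of erythropoietin signalling had a mean above background. Among all genes, 12678 of 14217 did, so these counts do not set the lists apart.

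The rest of the pathway was read from gene lists, with 1 probe set per gene, in the comparison of both hypoxic groups against normoxia. No list held a called gene, where 0.00703% of 14217 genes were called, and an unadjusted limma p below 0.05 was found for 6.22% of all genes in the higher and 6.98% in the lower direction. Of 11 other globins and chaperones, 3 were higher and 0 lower at that level. They included the embryonic globin Hbe1 (0.46, SE 0.20) and the beta globins Hbbl1 and Hbb-bs (0.62, SE 0.18). The remaining one had a mean below background, and 6 of the 11 had a mean above it. The median of the list was 0.15, against −0.010 over all genes, and it was −0.028 without normoxia arrays 1 and 2. Without those arrays, Hbe1 differed by 0.77 (SE 0.21), and Hbbl1 and Hbb-bs by 0.36 (SE 0.21).

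Haem synthesis had 13 measured genes, of which 1 was higher and 1 lower, with a median of 0.10. The decarboxylase Urod differed by 0.25 (SE 0.11) and the mitoferrin paralogue Slc25a28 by −0.33 (SE 0.083, limma adjusted p = 0.168). Fech, which inserts iron to complete haem, read 9.04, 9.44 and 9.37 in hypoxia with SU5416, 9.48, 8.89, 9.09 and 9.37 in hypoxia, and 8.60, 8.81, 9.35 and 8.88 in normoxia, a difference of 0.33 (SE 0.17, limma adjusted p = 0.422). As for Alas2, normoxia arrays 1 and 2 were lowest and hypoxia array 1 highest. The median of the list was 0.016 without normoxia arrays 1 and 2.

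The housekeeping enzyme Alas1, which does the same step as Alas2 outside the red cell line, went the other way within normoxia. It read 10.63, 10.87 and 10.86 in hypoxia with SU5416, 11.27, 10.76, 11.13 and 10.56 in hypoxia, and 10.81, 11.13, 9.36 and 9.60 in normoxia. Here normoxia arrays 1 and 2 matched the hypoxic groups and arrays 3 and 4 lay below every other array. The difference of both hypoxic groups from normoxia was 0.63 (SE 0.33, limma adjusted p = 0.438). It was 1.38 and called once normoxia arrays 1 and 2 were left out (limma adjusted p = 0.047).

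Of 12 other red cell membrane and skeleton genes, 2 were higher and 0 lower (median 0.21), Ank1 (0.65, SE 0.22) and the water channel Aqp1 (0.24, SE 0.098). In lung, Aqp1 is also abundant in endothelium. Of 11 red cell enzymes, 1 was higher, the hexokinase Hk1 (0.25, SE 0.098), and the median was 0.078. Of 10 erythroid transcription factors, 1 was lower, Tal1 (−0.44, SE 0.15), and the median was −0.16. Of 9 genes of erythropoietin signalling, the kinase Pim1 was higher (0.69, SE 0.19) and the receptor Kit lower (−0.74, SE 0.31), with a median of 0.13. The erythropoietin receptor Epor differed by 0.79 (SE 0.52), and its lowest array was normoxia array 1. Of 11 iron handling genes, 3 were higher, the ferroxidases Cp (0.44, SE 0.14) and Heph (0.27, SE 0.086) and the iron sensor Aco1 (0.44, SE 0.17), with a median of 0.022. None of these passed over all probe sets (limma adjusted p from 0.202 to 0.337 for those at an unadjusted p below 0.05). With normoxia arrays 1 and 2 left out, the list medians were −0.053 for membrane and skeleton, 0.050 for red cell enzymes and −0.19 for transcription factors. They were −0.22 for erythropoietin signalling and 0.029 for iron handling, so the membrane and the erythropoietin medians changed sign. The named genes did not all shrink in that fit. Differences were larger in size for Ank1 (1.07), Aqp1 (0.29), Hk1 (0.40), Kit (−1.28), Heph (0.30) and Aco1 (0.46). They were smaller for Tal1 (−0.18), Pim1 (0.55), Epor (0.18) and Cp (0.26).

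Markers of other blood cells gave no call with all 11 arrays. The summed level of 7 platelet markers ran between 11.10 and 11.20 in hypoxia with SU5416, 10.85 and 11.30 in hypoxia, and 10.68 and 11.37 in normoxia, so for platelets, which also come with the blood, the normoxia range held those of both other groups. That of 7 neutrophil markers ran between 13.12 and 13.75 with SU5416, 12.51 and 13.15 in hypoxia, and 11.95 and 13.19 in normoxia. Linear values were summed, so the brightest genes weigh most, and 2 of the 7 had a mean at or below background. Between hypoxia with SU5416 and normoxia, the brightest, Lcn2, differed by 2.11, S100a8 by −0.45 and S100a9 by −0.43, and 4 of the 7 were higher. Of 10 T and NK cell markers, 3 were lower and 0 higher at an unadjusted p below 0.05 (median −0.37, and −0.58 without normoxia arrays 1 and 2), and of 6 B cell markers, 4 were lower and 0 higher (median −0.50, and −0.66 without them). The part of these cells in the erythroid values was not tested.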

How the data were processed

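Total RNA of whole lung was labelled with biotin and hybridised to Affymetrix rat arrays, per the labels' protocols. The deposited values are log2 signal, 1 per probe set and array. The submitters' processing notes name RMA without a version. The mean of the linear values, trimmed by 2% at each end, was 500.0 on every array, a pattern of scaling to a target, so the summarisation is uncertain. Values were used as deposited. Of 31099 rows, 57 are controls and the other 31042 entered the tests; 20826 name 1 gene, 436 several and 9780 none.

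All 11 arrays entered a limma 3.58.1 fit (functions lmFit and eBayes of R 4.3.3; the residual degrees of freedom were 8), with two-sided tests and Benjamini-Hochberg adjustment over all probe sets of a comparison. Members, gene lists and alternatives were chosen with earlier results of these data known. Genes of other lists were represented by their brightest probe set, and up to 4 per list with the smallest p were named. The labels give no pairing of arrays by replicate number. Correlations of same-numbered residuals ran between −0.125 and 0.128, a range that alone cannot exclude a pairing. The procedure was checked on simulated data. Array number limits the precision. Figures used Python 3.11.15 and matplotlib 3.10.9.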

Additional observations from a re-analysis of the deposited data

Results flagged for a closer look

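Within groups of 4 arrays, 7 of 148 tested sets of values held an array whose gap to the nearest other array exceeded 0.829 of the group's range (Dixon's criterion), and chance flags about 1 in 20. None belongs to an erythroid member. The erythropoietin receptor Epor read 5.58 on normoxia array 1, against 7.52 to 7.82 on the others. The erythroid factor Gata1 read 6.93 on hypoxia array 3, against 7.21 to 7.24. The haem transporter Slc48a1 read 9.89 on hypoxia array 1, against 9.55 to 9.60. The biliverdin reductase Blvra read 9.90 on hypoxia array 3, against 9.41 to 9.47. Of macrophage genes, Adgre1 read 8.38 on hypoxia array 2 (others 8.12 to 8.16), C1qb 8.29 on hypoxia array 3 (others 8.69 to 8.75) and Mrc1 11.42 on hypoxia array 3 (others 11.18 to 11.21).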

How the results depend on the processing

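Under every alternative run, 0 of 14 erythroid probe sets were called in each comparison, whereas the limma calls over all probe sets ran between 6 and 214 for hypoxia with SU5416 against normoxia, 0 and 99 for hypoxia against normoxia, 6 and 24 for hypoxia with SU5416 against hypoxia, and 1 and 132 for both hypoxic groups against normoxia. The counts as reported were 19, 2, 8 and 2. SAM called 366, 584, 309 and 1090 probe sets in the same order. With the replicate number as a block, 0 erythroid probe sets were called, and 6, 1, 6 and 2 of all. That block changed no erythroid call. Of 11 arrays, 5 correlated best with an array of their own number, but no chance level was computed, so this count cannot decide whether the numbers pair the arrays. Fitting only the groups compared gives no value for both hypoxic groups, which use all arrays. Leaving out probe sets below background or below the median left 13 or 11 of the 14.

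Of 1258 differences recomputed, 73 changed sign, and the cause was not tested. Subtracting the actin and Gapdh controls moved the median of all probe sets by −0.21 for hypoxia with SU5416 against normoxia, −0.17 against hypoxia and −0.13 for both hypoxic groups. It turned hypoxia with SU5416 against hypoxia to −0.020 for Hbb, −0.026 for Alas2, −0.0065 for Slc4a1 1369634_at, −0.046 for alpha globin 1370239_at, −0.10 for 1370240_x_at, −0.12 for Slc25a37 and −0.11 for Bpgm 1388544_at. Against normoxia it gave, with SU5416, −0.20 for alpha globin 1370239_at, −0.17 for 1370240_x_at and −0.15 for Tfrc 1388750_at, in hypoxia −0.0097 for Tfrc 1371113_a_at, and for both −0.12 for 1370240_x_at and −0.028 for Tfrc 1388750_at.

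With the beta-actin gap as covariate, the differences from normoxia turned to 0.10 for Slc25a37 and −0.14 for Tfrc 1388750_at with SU5416. In hypoxia they turned to 0.017 for alpha globin 1370240_x_at, −0.23 for Tfrc 1371113_a_at and −0.015 for Bpgm 1383551_at. For both groups they turned to 0.0078 for alpha globin 1370239_at, −0.078 for Tfrc 1371113_a_at, −0.065 for Tfrc 1388750_at and 0.040 for Slc25a37. Against hypoxia, SU5416 gave −0.049 for Slc4a1 1369634_at and −0.0010 for Bpgm 1388544_at. Array weights gave −0.0095 for Tfrc 1388750_at with SU5416 and −0.13 for Tfrc 1371113_a_at in hypoxia.

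Median centring turned hypoxia against normoxia to 0.068 for alpha globin 1370240_x_at and 0.075 for Gypc, and both groups to 0.025 for 1370239_at. Quantile normalization gave 0.051 for 1370240_x_at in hypoxia and 0.0087 for 1370239_at for both.

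Without normoxia arrays 1 and 2, differences turned with SU5416 for Tfrc (−0.016 on 1371113_a_at, −0.15 on 1388750_at) and Slc25a37 (0.086). In hypoxia they turned for alpha globin 1370240_x_at (0.058), Tfrc (−0.46 and −0.069), Slc25a37 (0.034) and Bpgm (−0.35 on 1383551_at, −0.015 on 1388544_at). For both groups they turned for alpha globin 1370239_at (0.036), Tfrc (−0.24 and −0.11), Slc25a37 (0.060) and Bpgm 1383551_at (−0.0097).

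Leaving out 1 array at a time changed a sign within these ranges. With SU5416 against normoxia they were −0.26 to 0.054 for Slc25a37, −0.062 to 0.20 for Tfrc 1388750_at, −0.030 to 0.060 for alpha globin 1370239_at and −0.013 to 0.077 for 1370240_x_at. In hypoxia they were −0.18 to 0.29 for Tfrc 1371113_a_at, −0.30 to 0.0020 for Slc25a37, −0.048 to 1.07 for Bpgm 1383551_at, −0.081 to 0.0092 for alpha globin 1370240_x_at and −0.082 to 0.042 for Gypc. Between hypoxia with SU5416 and hypoxia they were −0.076 to 0.35 for Alas2, −0.083 to 0.21 for Slc25a37, −0.067 to 0.16 for Bpgm 1388544_at and −0.17 to 0.062 for Tfrc 1388750_at. For both groups they were −0.24 to 0.028 for Slc25a37, −0.020 to 0.19 for Tfrc 1388750_at and −0.047 to 0.043 for alpha globin 1370240_x_at. The signs of Hbb, Alas2 and Slc4a1 against normoxia, and of alpha globin 1388608_x_at, did not change in any fit run.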

Other observations

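Genes that dispose of haem and haemoglobin gave no call in both hypoxic groups against normoxia, and 0 of 9 passed an unadjusted limma p of 0.05 (median difference 0.14, and −0.17 without normoxia arrays 1 and 2). The haem oxygenase Hmox1 read 10.20, 9.27 and 9.70 in hypoxia with SU5416, 9.16, 9.28, 9.25 and 9.32 in hypoxia, and 8.57, 9.17, 9.73 and 9.58 in normoxia, a difference of 0.23 (SE 0.23). Haptoglobin (Hp), which binds free haemoglobin, differed by 0.14 (SE 0.17). Of 4 genes of reticulocyte maturation, 0 passed at that level; the mitophagy receptor Bnip3l differed by 0.036 and the nuclear export receptor Xpo7 by −0.093. The median of these 4 was 0.013, and 0.095 without the same arrays.

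Of 8 macrophage markers, 3 were higher and 1 lower at an unadjusted limma p below 0.05 in both hypoxic groups against normoxia (median 0.35). They were the complement genes C1qa (0.73, SE 0.17) and C1qb (0.98, SE 0.29), the mannose receptor Mrc1 (0.42, SE 0.15) and Adgre1 (−0.55, SE 0.14). Taken apart, the differences from normoxia were 1.37 with SU5416 and 0.084 in hypoxia for C1qa, and 1.75 and 0.20 for C1qb. For Mrc1 they were 0.62 and 0.22, and for Adgre1 −0.87 and −0.23. Without normoxia arrays 1 and 2, Adgre1 was called (−0.83, limma adjusted p = 0.0451). Of 7 neutrophil markers, 1 was higher, Lcn2 (1.5, SE 0.49), and 1 lower, S100a8 (−0.44, SE 0.16), with a median of −0.17. Of 7 platelet markers, 1 was lower, Gp9 (−0.82, SE 0.30), with a median of 0.097, and of 7 lung epithelial and endothelial markers, 1 was lower, Scgb1a1 (−0.37, SE 0.15), with a median of −0.043. Leaving out normoxia arrays 1 and 2 gave medians of 0.074 for macrophage, −0.25 for neutrophil, −0.13 for platelet and 0.11 for lung epithelial and endothelial markers, so the last 2 changed sign.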
